A study of Mus musculus with 4 samples.

Results

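Ion channel genes were compared between mouse CAFs, or cancer-associated fibroblasts, the stromal cells that surround and support tumour cells, of resistant and of normal tumours. The members were all gene symbols of the count table that begin with Kcn, Cacn, Scn and a digit, Trpc, Trpm or Trpv and a digit, Clcn, Ano and a digit, Piezo or Hcn, and whose reads summed to at least 40 over the 4 libraries. Of 184 symbols with such a name, 48 met that minimum, out of 23377 genes in the table. Polyadenylated RNA was sequenced from 2 libraries named RES4, whose label calls them associated with resistant tumours, and 2 libraries named WTA, whose label calls them associated with normal tumours. The labels give no strain, age, genotype, drug or sort for either group, and each group carries 1 name, so the traits of 1 tumour or culture cannot be told apart from the group. The title of the series concerns adaptive resistance to therapies that target MET and EGFR, and the lactate that tumour cells secrete.

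Ion channels are membrane proteins that let ions flow down their gradients. Potassium channels set the resting potential and repolarise the cell, voltage-gated sodium and calcium channels carry the inward current of excitable cells, and TRP and Piezo channels let cations enter after chemical, thermal or mechanical stimuli. CLC proteins and anoctamins carry chloride, exchange chloride for protons or move lipids across the membrane. Fibroblasts do not fire action potentials, but they express channels that act in calcium entry, volume control, mechanical sensing and lysosomal acidity.

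The libraries held 2845237 and 2785936 reads in resistant tumour CAFs and 3948066 and 5558541 reads in normal tumour CAFs. Levels are given in CPM, the reads of a gene per 1000000 reads of library size, with library sizes adjusted by TMM factors (trimmed mean of M values). A count of 0 allows up to 3 reads, or 1.14 and 1.10 CPM in the resistant libraries and 0.743 and 0.505 CPM in the normal libraries. Such limits, and the intervals given below, cover counting error only. The design text speaks of biological replicates without naming separate animals or cultures, so p-values measure only how far these 4 libraries spread, and that spread may be technical. Of the 48 members, 26 had fewer than 100 reads over all 4 libraries, and 40 had a read in each library.

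Markers of cell type differed between the groups. Of 10 tested Schwann cell and neural crest markers, 7 fell and 2 rose, and the summed level of the list was 114 and 134 CPM in resistant tumour CAFs, against 1306 and 1182 CPM in normal tumour CAFs. Its transcription factor Sox10 had 2 and 1 reads in resistant tumour CAFs, against 745 and 821 in normal tumour CAFs. Of 13 tested pan-fibroblast markers, 12 rose, and the list summed to 9515 and 9110.3 CPM in resistant tumour CAFs, against 4450.0 and 3677 CPM in normal tumour CAFs. Neuronal markers summed to 26.3 and 37.4 CPM in resistant tumour CAFs, against 142 and 142 CPM in normal tumour CAFs, with 1 of 3 tested genes higher and 2 lower, and Nefh and Elavl4 had no read. Smooth muscle and pericyte markers gave 2 higher and 2 lower of 10, and summed to 653 and 813 CPM in resistant tumour CAFs, against 1091 and 954 CPM in normal tumour CAFs. Melanocyte markers gave 1 lower of 3, and that gene was Sox10 again, while Dct, Tyrp1 and Mlana had no read. Macrophage and leukocyte markers gave 1 higher of 3 and summed to 20.2 and 29.0 CPM in resistant tumour CAFs, against 9.41 and 9.59 CPM in normal tumour CAFs. Epithelial markers gave 1 higher of 1, with no read of Epcam or Cdh1 in any library. No endothelial marker passed the filter, and their sum was at most 5.95 CPM in any library. The part that these cell type differences have in the channel results was not tested, and in bulk RNA fewer cells of a type and less RNA per cell cannot be told apart.

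Resistant tumour CAFs had more RNA for 12 channel genes and less for 10, and the direction split several families between close relatives. Within these families the calls of Kcnab3, Kcnk2, Trpm3, Trpm4 and Cacna1h were each lost in at least 1 alternative fit. Of 46 members that passed the filter on low counts, 22 were called at an adjusted p under 0.05, or 47.8%, against 29.4% of 12001 genes tested. Over all genes 15.5% were called higher and 13.9% lower. The median log2 fold change was 0.53 over the tested members, against -0.0036 over all genes tested, and the median absolute log2 fold change was 1.45 over the members, against 0.61 over all genes. With offsets for read density the members split into 8 higher and 12 lower. The 5 calls lost there, of Cacnb1, Cacng7, Trpm4, Trpv2 and Scn2a1, were all in the higher direction. The ranges of the groups did not overlap for 36 of the 46 members, against 64.7% of all genes tested. These shares are not a test of the set, because 12 members passed the filter only through the resistant libraries and 9 only through the normal libraries, and a gene of that kind is likely to be called. Of the 22 tested members at the filter's level in both libraries of both groups, 3 were called higher and 4 lower. Kcnn1 was among the 2 members that did not pass the filter. Members just inside the minimum included Cacnb1 and Kcnc2 with 42 reads, and those just under it were Trpv4, Kcnh2 and Kcna4 with 38, 37 and 35.

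**Figure D1:**
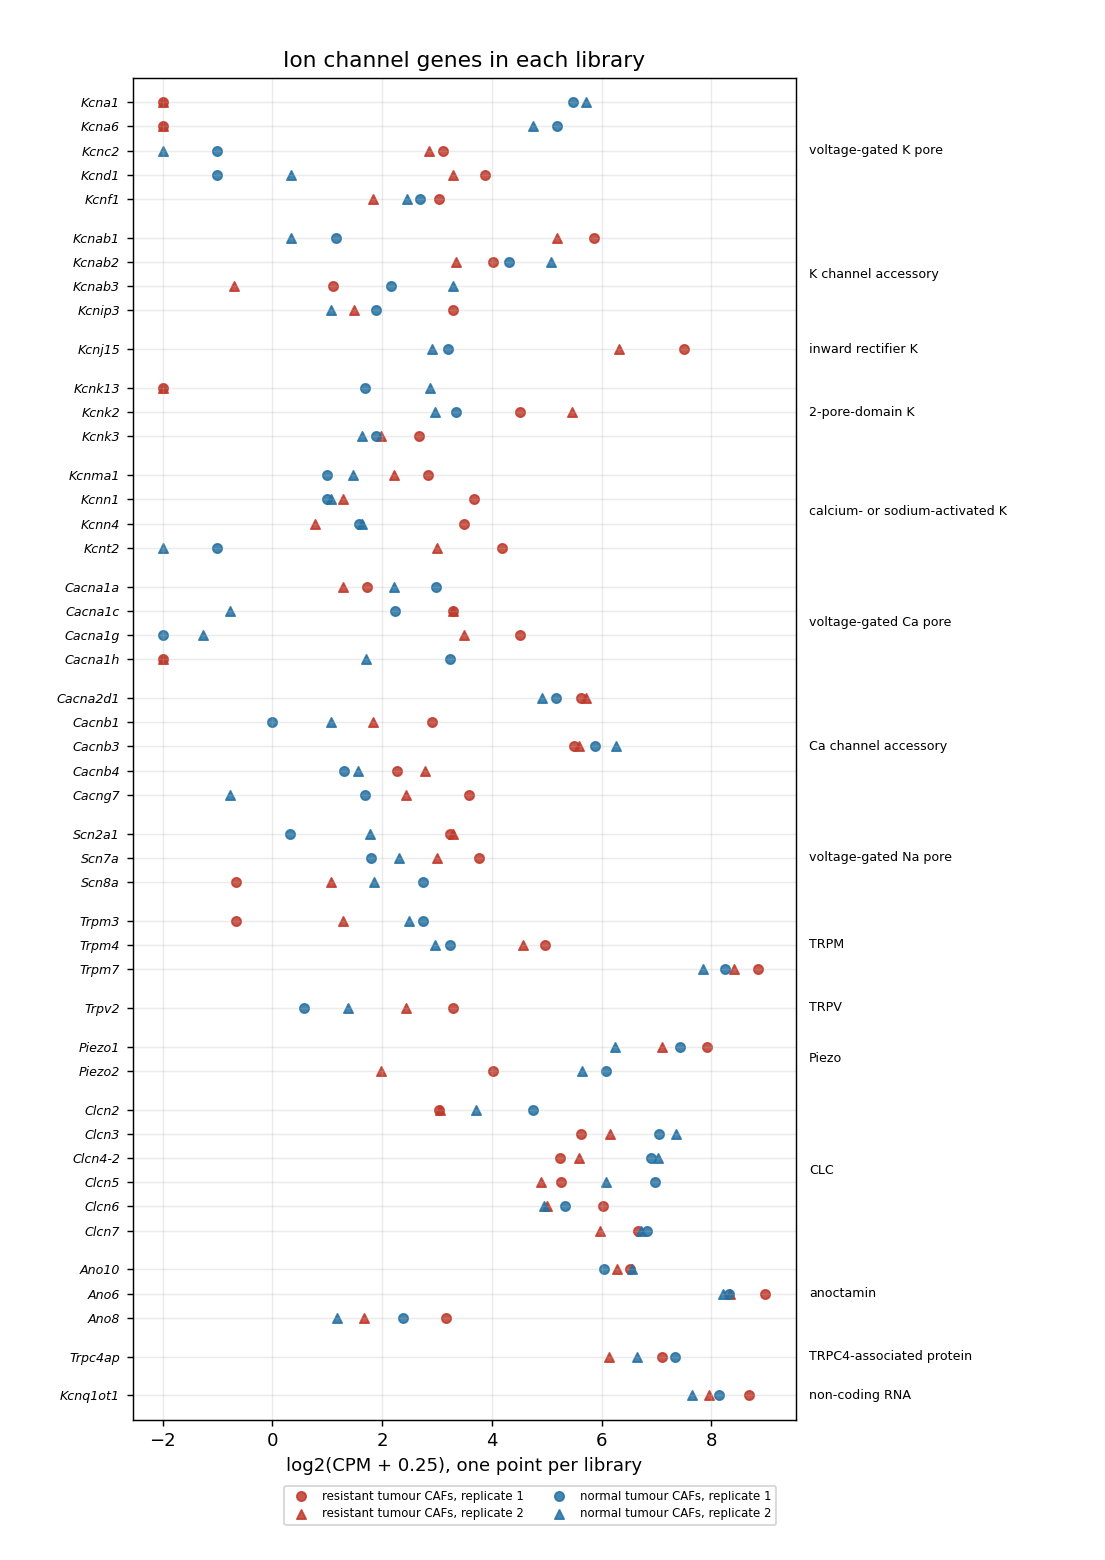
Level of 46 of the 48 members in each of the 4 libraries, as log2(CPM + 0.25), grouped by channel class; circles and triangles are replicates 1 and 2. Kcna1, Kcna6, Kcnk13 and Cacna1h have both resistant libraries at 0 reads, and Trpm7 and Ano6 are among the highest points in every library.

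**Figure D2:**
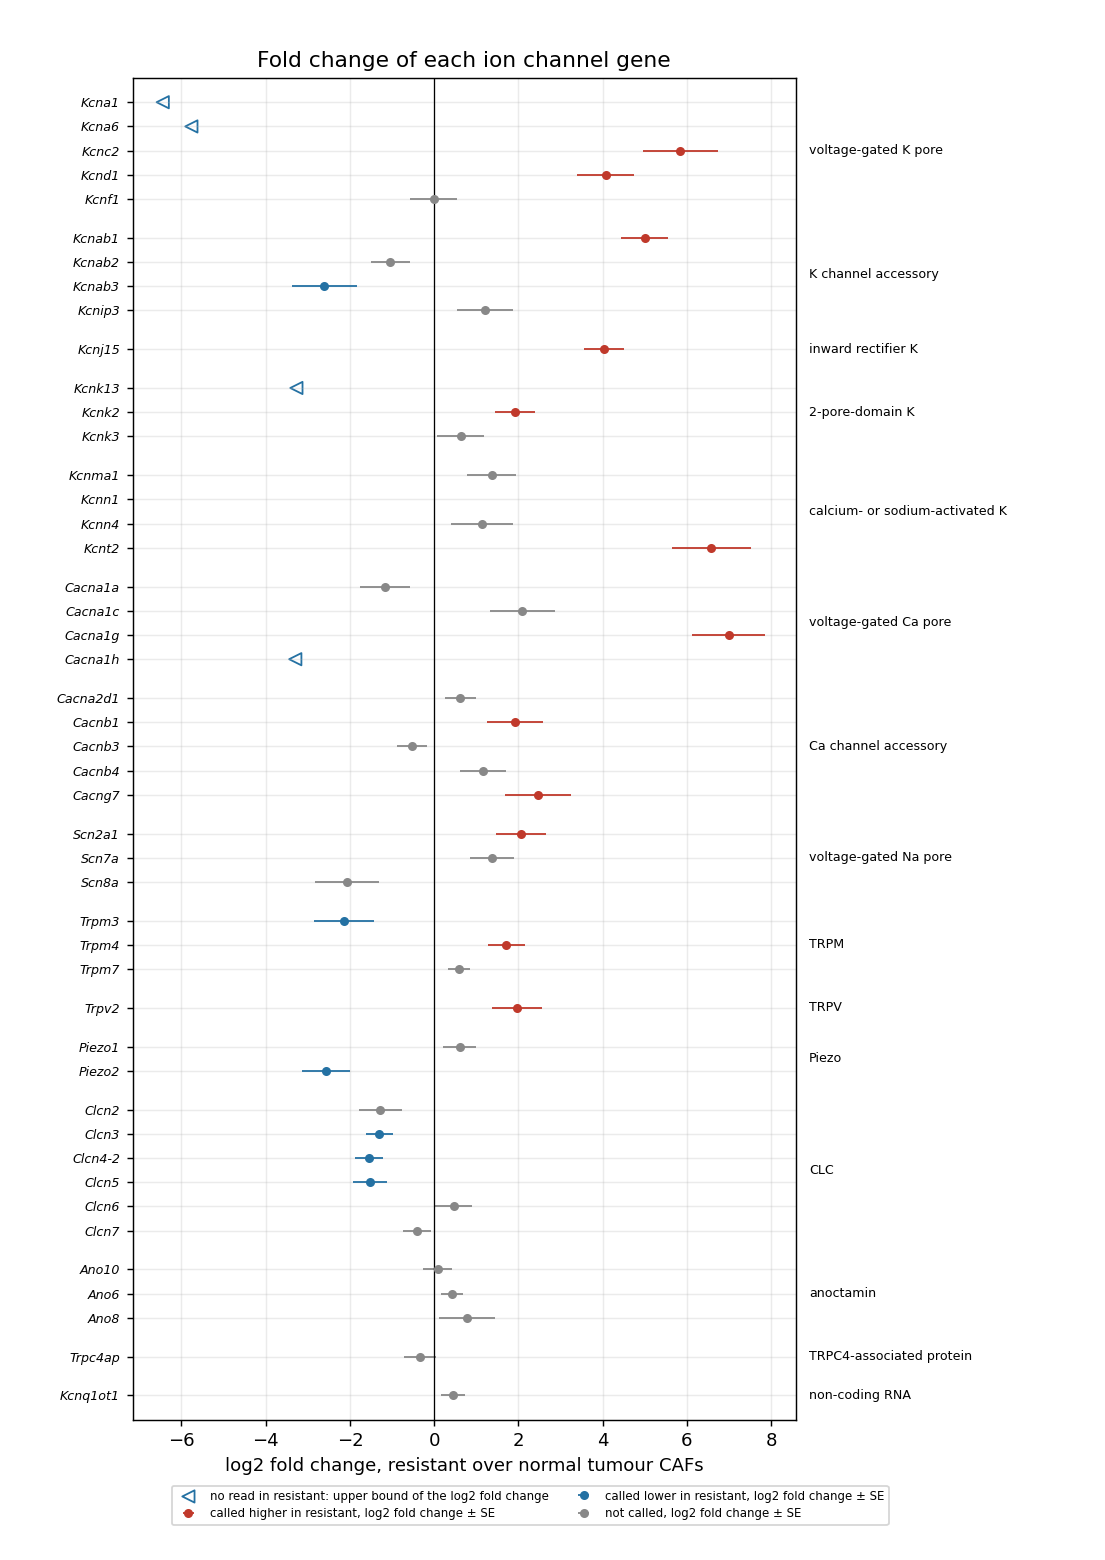
Log2 fold change of resistant over normal tumour CAFs with its standard error for the same members, coloured by call; open triangles give the bound for the 4 genes shown with no read in resistant tumour CAFs, and Kcnn1 has no value. Kcnc2, Kcnt2 and Cacna1g, with 1 read in normal tumour CAFs, are drawn at their fitted values. Of the 6 CLC genes, 5 lie left of 0.

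Voltage-gated potassium channel pores changed in both directions, 2 higher and 2 lower of 5 tested. Kcna1, a pore subunit of the Shaker family that opens at low voltage in axons, had no read in either resistant library, against 178 and 309 reads, or 44.1 and 52.0 CPM, in the normal libraries. The level was at least 87.1-fold lower there than in normal tumour CAFs, a bound that sets the resistant group at 3 reads (adjusted p = 1.98e-05). Kcna6, of the same family, likewise had no read in resistant tumour CAFs, against 146 and 158 reads in normal tumour CAFs, and was at least 54.4-fold lower (adjusted p = 4.31e-05). In the GRCm38 annotation Kcna1 and Kcna6 are next to each other on chromosome 6, with Kcna5 on the other side of Kcna1, and Kcna5 had no read in any library. An opposite-strand gene, Gm26673, shares 39.6% of the exonic bases of Kcna6 in a GRCm38 annotation, and whether the counting used strand is not given in the sources used here, so the reads of Kcna6 are uncertain.

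Kcnc2 and Kcnd1, pores of the Shaw and Shal families, went the other way. Kcnc2, which serves fast repolarisation in neurons, had 22 and 19 reads in resistant tumour CAFs, against 1 and 0 reads in normal tumour CAFs, a ratio of 76.4 (95% counting interval 12.97 to 3091; adjusted p = 3.58e-04). Kcnd1, which carries a transient A-type current, had 14.5 and 9.54 CPM in resistant tumour CAFs, against 0.248 and 1.01 CPM in normal tumour CAFs, and rose by 4.07 ± 0.67 on the log2 scale (SE; adjusted p = 6.06e-04). The ranges of the groups did not overlap for these 2 genes. The log2 fold change of Kcnd1 was 3.46 without normal replicate 1, 5.35 without normal replicate 2 and 3.31 with offsets for read density, and the call held in each (adjusted p = 0.00373, 3.24e-04 and 0.00370). Kcnf1, a modulatory subunit that forms no channel alone, had 7.99 and 3.30 CPM in resistant tumour CAFs and 6.19 and 5.22 CPM in normal tumour CAFs, with overlapping ranges (-0.01 ± 0.56, adjusted p = 0.989). The 6 Kcna genes of the table together had 6.09 and 2.94 CPM in resistant tumour CAFs, against 82.5 and 80.8 CPM in normal tumour CAFs.

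Accessory subunits of the potassium channels split too. The beta subunits bind the cytoplasmic side of Shaker pores and resemble aldo-keto reductases. Kcnab1, a beta subunit that speeds inactivation, had 152 and 99 reads, or 57.8 and 36.3 CPM, in resistant tumour CAFs, against 8 and 6 reads, or 1.98 and 1.01 CPM, in normal tumour CAFs. Its log2 fold change was 5.00 ± 0.56 (adjusted p = 4.22e-05). Kcnab3 had 1.90 and 0.367 CPM in resistant tumour CAFs, against 4.21 and 9.59 CPM in normal tumour CAFs, and fell by 2.61 ± 0.76 on the log2 scale (adjusted p = 0.0214). That call rested on few reads, and it was lost with DESeq2 (adjusted p = 0.0865), without resistant replicate 2 (-1.87, adjusted p = 0.155) or without normal replicate 2 (-1.91, adjusted p = 0.295). Without resistant replicate 1 the log2 fold change of Kcnab3 was -4.15 (adjusted p = 0.0367). Kcnab2, the most abundant of the 3 in normal tumour CAFs on the CPM per kb scale, had 16.0 and 9.91 CPM in resistant tumour CAFs and 19.6 and 33.5 CPM in normal tumour CAFs, and did not pass (-1.04 ± 0.47, adjusted p = 0.117). The fourth tested accessory gene, Kcnip3, which encodes a calcium-binding partner of Shal pores, was not called either (adjusted p = 0.209).

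Kcnj15 was the inward rectifier among the members, a channel that passes potassium more readily into the cell than out of it. It had 478 and 218 reads, or 182 and 80.0 CPM, in resistant tumour CAFs, against 36 and 43 reads, or 8.92 and 7.24 CPM, in normal tumour CAFs. The replicates of resistant tumour CAFs differed by more than the normal ones, and yet the lower of them was far above both normal libraries. The log2 fold change was 4.02 ± 0.47 (adjusted p = 5.96e-05), and 3.32 without resistant replicate 1 (adjusted p = 8.54e-04).

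The 2-pore-domain channels, which carry background potassium current, had 1 member higher and 1 lower of 3. Kcnk2, a channel opened by membrane stretch and lipids, had 22.4 and 43.7 CPM in resistant tumour CAFs, against 9.91 and 7.57 CPM in normal tumour CAFs, and rose by 1.92 ± 0.47 (adjusted p = 0.00838). The call was lost without resistant replicate 2 (1.37, adjusted p = 0.0584) or without normal replicate 2 (1.71, adjusted p = 0.107). An opposite-strand gene shares 12.2% of its exonic bases. Kcnk13, a channel inhibited by halothane, had no read in resistant tumour CAFs, against 12 and 42 reads in normal tumour CAFs, and was at least 9.66-fold lower (adjusted p = 0.00277). Kcnk3, an acid-sensitive relative, had 6.09 and 3.67 CPM in resistant tumour CAFs and 3.47 and 2.86 CPM in normal tumour CAFs and did not pass (adjusted p = 0.448).

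Among channels activated by calcium or sodium, 1 of 3 tested genes was called. Kcnt2, a sodium-activated potassium channel, had 47 and 21 reads in resistant tumour CAFs, against 1 and 0 reads in normal tumour CAFs, a ratio of 127 (95% counting interval 22.0 to 5079; adjusted p = 2.25e-04). Kcnn4, the intermediate-conductance calcium-activated channel, had 29 and 4 reads in resistant tumour CAFs and 11 and 17 reads in normal tumour CAFs. Its replicates in resistant tumour CAFs lay on either side of the normal libraries (1.14 ± 0.74, adjusted p = 0.281). Without resistant replicate 2 it passed (1.97, adjusted p = 0.0429), and without resistant replicate 1 it was -0.91 and did not. Kcnma1, the large-conductance channel, was not called (adjusted p = 0.0961), and Kcnn1, which did not pass the filter, had 33 and 6 reads in resistant tumour CAFs and 7 and 11 reads in normal tumour CAFs.

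Promoter sequences are shown for 4 potassium channel genes that moved far apart, Kcna6 and Kcnk13 with no read in resistant tumour CAFs and Kcnj15 and Kcnt2 with the higher level there. They come from RefSeq on GRCm38.p6 and run from 250 bases before to 50 bases after an annotated start, 5′ to 3′ on the strand of the gene. They lie at chr6:126740625-126740924 (minus strand) for Kcna6, chr12:99964249-99964548 (plus strand) for Kcnk13, chr16:95257308-95257607 (plus strand) for Kcnj15 and chr1:140245468-140245767 (plus strand) for Kcnt2. Capitals mark matches, on either strand, to ACAAAG or ACAATG (SOX factors), ACGTG (the core of hypoxia response elements), TGANTCA (AP-1), TATAAA (the TATA box) or CCAAT (the CCAAT box).
Kcna6: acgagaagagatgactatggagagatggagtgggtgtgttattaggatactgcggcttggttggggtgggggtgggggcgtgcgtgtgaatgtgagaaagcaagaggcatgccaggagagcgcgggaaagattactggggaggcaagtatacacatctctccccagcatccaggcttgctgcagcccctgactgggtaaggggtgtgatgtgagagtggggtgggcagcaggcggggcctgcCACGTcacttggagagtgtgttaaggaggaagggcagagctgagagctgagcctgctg
Kcnk13: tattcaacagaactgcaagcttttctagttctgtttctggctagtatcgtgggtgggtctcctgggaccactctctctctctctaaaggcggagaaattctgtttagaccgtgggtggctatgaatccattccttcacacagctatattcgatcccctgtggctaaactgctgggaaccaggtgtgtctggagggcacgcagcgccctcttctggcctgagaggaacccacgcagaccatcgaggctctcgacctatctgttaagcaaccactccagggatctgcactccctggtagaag
Kcnj15: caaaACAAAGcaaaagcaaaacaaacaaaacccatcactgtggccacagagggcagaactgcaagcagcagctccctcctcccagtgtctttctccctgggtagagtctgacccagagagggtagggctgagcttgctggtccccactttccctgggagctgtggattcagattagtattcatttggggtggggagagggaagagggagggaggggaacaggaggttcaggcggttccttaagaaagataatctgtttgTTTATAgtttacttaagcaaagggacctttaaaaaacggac
Kcnt2: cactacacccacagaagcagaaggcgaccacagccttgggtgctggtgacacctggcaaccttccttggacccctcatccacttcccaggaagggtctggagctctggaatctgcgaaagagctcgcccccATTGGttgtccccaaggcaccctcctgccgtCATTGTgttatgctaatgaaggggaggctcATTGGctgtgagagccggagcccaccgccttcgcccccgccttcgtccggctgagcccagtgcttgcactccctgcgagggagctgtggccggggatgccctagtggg
The window of Kcna6 held 1 match to ACGTG and none to the other motifs, and that of Kcnk13 held none. The window of Kcnj15 held 1 match to ACAAAG and 1 to TATAAA, and that of Kcnt2 held 1 match to ACAATG and 2 to CCAAT. The TATAAA match of Kcnj15 is on the opposite strand and lies after the annotated start. They held 8, 9, 2 and 12 CpG dinucleotides, in the order printed, against a median of 7 over all 32851 windows. Windows were found for 36 members, 2 of them by a newer symbol, 64 windows in all. Over all windows, 18.7% held ACAAAG, 12.6% ACAATG, 19.6% ACGTG, 7.81% TGANTCA, 13.6% TATAAA and 37.4% CCAAT. Among 21 windows of members called higher, 7 held ACAAAG, 3 ACAATG, 3 ACGTG, 1 TGANTCA, 4 TATAAA and 6 CCAAT. Among 10 windows of members called lower, 1 held ACAAAG, 2 ACAATG, 3 ACGTG, 0 TGANTCA, 1 TATAAA and 2 CCAAT. A gene can have several windows, so these counts are a description, and a match is not a bound site.

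Voltage-gated calcium channel pores were called in both directions within the T-type family, channels that open near the resting potential. Cacna1g had 59 and 30 reads, or 22.4 and 11.0 CPM, in resistant tumour CAFs, against 0 and 1 reads in normal tumour CAFs, a ratio of 166 (95% counting interval 29.0 to 6625; adjusted p = 8.97e-05). Cacna1h had no read in resistant tumour CAFs, against 37 and 18 reads, or 9.17 and 3.03 CPM, in normal tumour CAFs, and was at least 9.84-fold lower (adjusted p = 0.00318). The call of Cacna1h was lost without resistant replicate 2. Cacna1h was not tested without normal replicate 1 or with at least 50 reads asked for in 2 libraries. Neither resistant library had a read of Cacna1h, and the normal libraries had 1 read of Cacna1g in all. The 3 T-type genes together had 22.4 and 11.0 CPM in resistant tumour CAFs, against 9.17 and 3.53 CPM in normal tumour CAFs.

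The other calcium channel pores among the members were not called. Cacna1c, the L-type pore, had 25 and 26 reads in resistant tumour CAFs, against 18 and 2 reads in normal tumour CAFs, and its normal replicates were far from each other (2.096 ± 0.78, adjusted p = 0.0610). It passed in 7 alternatives, among them the fit without normal replicate 1 (4.63, adjusted p = 0.00107). Cacna1a, the P/Q-type pore, had 8 and 6 reads in resistant tumour CAFs and 31 and 26 in normal tumour CAFs (adjusted p = 0.164).

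Of 5 tested accessory genes of calcium channels, 2 rose and none fell. Cacng7, whose protein also binds AMPA-type glutamate receptors, had 11.8 and 5.14 CPM in resistant tumour CAFs, against 2.97 and 0.337 CPM in normal tumour CAFs, and rose by 2.46 ± 0.79 (adjusted p = 0.0324). Cacnb1, a cytoplasmic beta subunit, had 19 and 9 reads in resistant tumour CAFs, against 3 and 11 in normal tumour CAFs, and rose by 1.92 ± 0.67 (adjusted p = 0.0468). Both calls were fragile, since neither passed with DESeq2 (adjusted p = 0.0884 for Cacng7 and 0.218 for Cacnb1), and Cacnb1 failed in 7 of its alternatives and Cacng7 in 5. Leaving out 1 library gave log2 fold changes of 1.27 to 2.71 for Cacnb1, the lowest without resistant replicate 1 and the highest without normal replicate 2. Cacng7 was at 1.76 without resistant replicate 1, 4.45 without normal replicate 1 and 1.45 without normal replicate 2. With offsets for read density Cacnb1 was at 0.94 (adjusted p = 0.334) and Cacng7 at 2.06 (adjusted p = 0.0637). Cacnb3, another beta subunit, had 44.9 and 48.1 CPM in resistant tumour CAFs and 58.7 and 76.2 CPM in normal tumour CAFs, and was not called (-0.54 ± 0.36, adjusted p = 0.294). Cacna2d1, the extracellular subunit that gabapentin binds, had 49.1 and 52.1 CPM in resistant tumour CAFs and 35.9 and 30.0 CPM in normal tumour CAFs (0.62 ± 0.37, adjusted p = 0.247).

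Voltage-gated sodium channels were sparse. Scn2a1, a neuronal pore gene, had 24 and 26 reads in resistant tumour CAFs, against 4 and 19 reads in normal tumour CAFs, and rose by 2.07 ± 0.59 (adjusted p = 0.0192). It failed in 5 alternatives, among them DESeq2 (adjusted p = 0.0745) and offsets for read density (0.80, adjusted p = 0.393). The log2 fold change of Scn2a1 was 1.47 without normal replicate 1 and 3.15 without normal replicate 2. Scn7a, an atypical channel that responds to extracellular sodium, had 35 and 21 reads in resistant tumour CAFs and 13 and 28 reads in normal tumour CAFs (1.38 ± 0.52, adjusted p = 0.0671). Scn8a, the main pore at nodes of Ranvier, had 1 and 5 reads in resistant tumour CAFs and 26 and 20 reads in normal tumour CAFs, with a log2 fold change of -2.07 ± 0.76 that did not pass (adjusted p = 0.0572) but did in 6 alternatives.

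**Figure D3:**
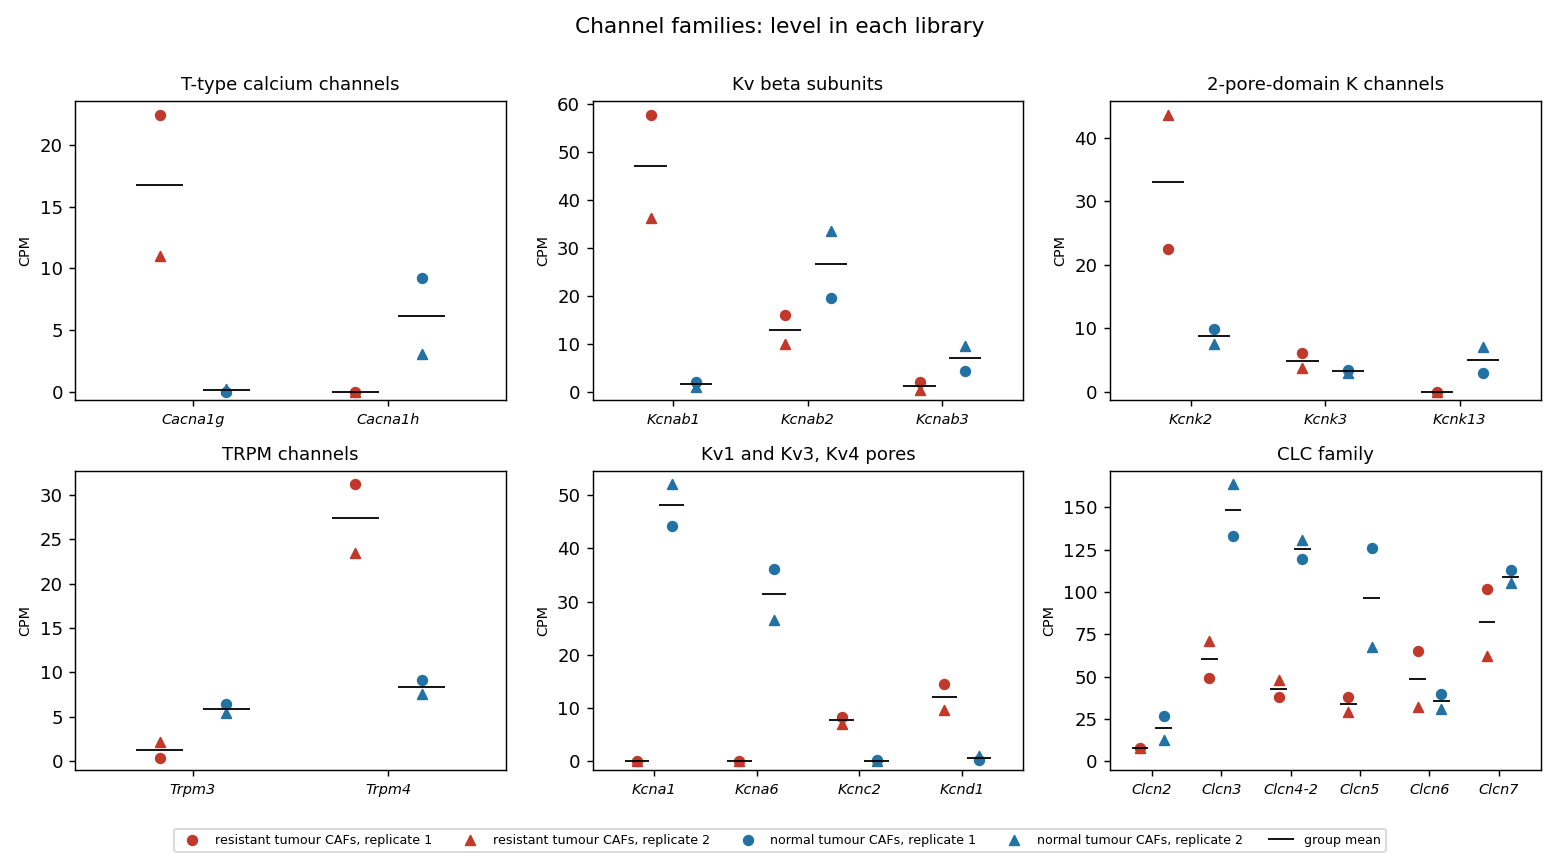
CPM of members of 6 channel families in each library, with circles and triangles for replicates 1 and 2 and a line at the mean of each group. Cacna1g, Kcnab1, Kcnk2 and Trpm4 stand higher in resistant tumour CAFs, while Cacna1h, Kcnab3, Kcnk13 and Trpm3 stand lower.

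TRP channels of the M group again moved apart. Trpm4, a cation channel opened by intracellular calcium, had 31.2 and 23.5 CPM in resistant tumour CAFs, against 9.17 and 7.57 CPM in normal tumour CAFs, and rose by 1.71 ± 0.44 (adjusted p = 0.0107). Trpm3, a channel opened by heat and steroids, had 1 and 6 reads in resistant tumour CAFs, against 26 and 32 reads in normal tumour CAFs, and fell by 2.15 ± 0.71 on the log2 scale (adjusted p = 0.0374). Neither passed without a normal replicate (adjusted p = 0.0773 and 0.161 for Trpm4, 0.162 and 0.112 for Trpm3), and Trpm3 did not with DESeq2 (adjusted p = 0.173) or without resistant replicate 1 (-1.40, adjusted p = 0.180). Without resistant replicate 2 the log2 fold change of Trpm3 was -3.85 (adjusted p = 0.0356), and with offsets for read density -3.81 (adjusted p = 0.00248). Trpm4 was at an adjusted p of 0.0513 with offsets for read density. Trpm7, which joins a channel for magnesium, zinc and calcium to a kinase, had 462 and 341 CPM in resistant tumour CAFs and 303 and 229.7 CPM in normal tumour CAFs. Its ranges were apart, but it did not pass (0.59 ± 0.26, adjusted p = 0.106). With offsets for read density Trpm7 passed (0.70, adjusted p = 0.0373). Trpv2, a cation channel of the vanilloid group, had 25 and 14 reads in resistant tumour CAFs, against 5 and 14 reads in normal tumour CAFs, and rose by 1.96 ± 0.60 (adjusted p = 0.0263). It failed in 5 alternatives, among them DESeq2 (adjusted p = 0.130) and offsets for read density (1.17, adjusted p = 0.173). No TRPC channel reached the minimum: the 7 Trpc genes of the table together had 6 and 2 reads in resistant tumour CAFs and 7 and 15 reads in normal tumour CAFs.

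Piezo channels open when the membrane is stretched. Piezo2, the channel of touch receptors and proprioceptors, had 42 and 10 reads, or 16.0 and 3.67 CPM, in resistant tumour CAFs, against 271 and 296 reads, or 67.1 and 49.8 CPM, in normal tumour CAFs. It fell by 2.57 ± 0.57 on the log2 scale (adjusted p = 0.00445). The size rested on the resistant libraries, at -3.97 without resistant replicate 1 and -1.87 without resistant replicate 2, and the call held in both (adjusted p = 0.00133 and 0.0137). Piezo1, the form found in many non-neural tissues, had 242 and 137 CPM in resistant tumour CAFs and 173 and 75.9 CPM in normal tumour CAFs, with overlapping ranges and no call (0.61 ± 0.39, adjusted p = 0.279). The opposite-strand gene Ctu2 shares 24.6% of the exonic bases of Piezo1, so its count is uncertain without strand.

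Of 6 CLC genes, 3 fell and none rose. Clcn3, Clcn4-2 and Clcn5 encode chloride and proton exchangers of endosomes. Clcn3 had 49.1 and 71.2 CPM in resistant tumour CAFs, against 133 and 164 CPM in normal tumour CAFs, and fell by 1.30 ± 0.33 (adjusted p = 0.00954). Clcn4-2 had 37.7 and 48.1 CPM in resistant tumour CAFs, against 119 and 131 CPM in normal tumour CAFs, and fell by 1.55 ± 0.33 (adjusted p = 0.00382). Clcn5 had 38.0 and 29.4 CPM in resistant tumour CAFs, against 126 and 67.3 CPM in normal tumour CAFs, and fell by 1.52 ± 0.40 (adjusted p = 0.0127). For all 3 genes both normal libraries were above both resistant ones. Without normal replicate 1 none of the 3 passed (adjusted p = 0.0716, 0.0526 and 0.308), and Clcn3 and Clcn4-2 did not without normal replicate 2 (adjusted p = 0.251 and 0.105), although the log2 fold changes of these 2 genes lay between -1.67 and -1.17 there. Clcn5 also lost its call without resistant replicate 2 (adjusted p = 0.0595). An opposite-strand gene shares 11.5% of the exonic bases of Clcn4-2.

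The other CLC genes did not pass. Clcn7, the exchanger of lysosomes, had 102 and 62.4 CPM in resistant tumour CAFs and 113 and 105 CPM in normal tumour CAFs (-0.41 ± 0.34, adjusted p = 0.407), and it passed without resistant replicate 1 (-0.80, adjusted p = 0.0335). Clcn6, of late endosomes, had a log2 fold change of 0.46 ± 0.43 and Clcn2, a chloride channel of the cell surface, of -1.28 ± 0.50 (adjusted p = 0.0750). Summed over the 6 genes the level was 299 and 251 CPM in resistant tumour CAFs, against 558 and 511 CPM in normal tumour CAFs.

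No anoctamin was called among 3 tested with edgeR's quasi-likelihood test, at an unadjusted p under 0.05 there were 0, and DESeq2 and limma-voom called 0. Ano6, which scrambles membrane lipids after calcium entry, had 508 and 324 CPM in resistant tumour CAFs and 322 and 298 CPM in normal tumour CAFs (0.42 ± 0.26, adjusted p = 0.257). It passed without resistant replicate 2 (0.71, adjusted p = 0.0466). Ano10 had 91.7 and 77.8 CPM in resistant tumour CAFs and 65.9 and 94.3 CPM in normal tumour CAFs, and the ranges overlapped.

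Of the names that met the pattern, 2 are not channel subunits. Kcnq1ot1 is a long non-coding RNA antisense to Kcnq1 that silences imprinted genes in cis, and it had 411 and 249 CPM in resistant tumour CAFs and 282 and 202 CPM in normal tumour CAFs (0.45 ± 0.29, adjusted p = 0.284). Trpc4ap encodes a protein that binds a TRPC channel, and it had 137 and 70.5 CPM in resistant tumour CAFs and 161 and 100.3 CPM in normal tumour CAFs (-0.34 ± 0.37, adjusted p = 0.549). Without them the members are 46 channel genes.

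Levels of different genes were compared as CPM per kb of exonic length, from a GRCm38 annotation. Trpm7 and Ano6 were at the top of both groups, with means of 35.5 and 33.9 CPM per kb in resistant tumour CAFs and 23.5 and 25.3 CPM per kb in normal tumour CAFs. The 2 did not differ beyond their spread in either group. Kcnj15 had rank 3 in resistant tumour CAFs, with 28.8 and 12.7 CPM per kb in its 2 libraries, and it had rank 23 of 48 in normal tumour CAFs, with 1.41 and 1.15 CPM per kb. Its range in resistant tumour CAFs overlapped that of Ano6 at rank 2 (41.4 and 26.4 CPM per kb). It also overlapped those of Piezo1 (24.3 and 13.8), Clcn7 (19.2 and 11.8), Ano10 (15.5 and 13.2) and Trpc4ap (15.6 and 8.05 CPM per kb). In normal tumour CAFs ranks 3 to 6 were held by Clcn7, Cacnb3, Trpc4ap and Clcn4-2, with means of 20.6, 16.8, 14.9 and 14.6 CPM per kb, the last 3 with overlapping ranges. Kcna1 reached 10.1 CPM per kb in normal tumour CAFs. Trpm7, Ano6 and Kcnq1ot1 together took 49.9% and 49.0% of the summed CPM of all members in resistant tumour CAFs, and 40.4% and 38.9% in normal tumour CAFs.

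**Figure D4:**
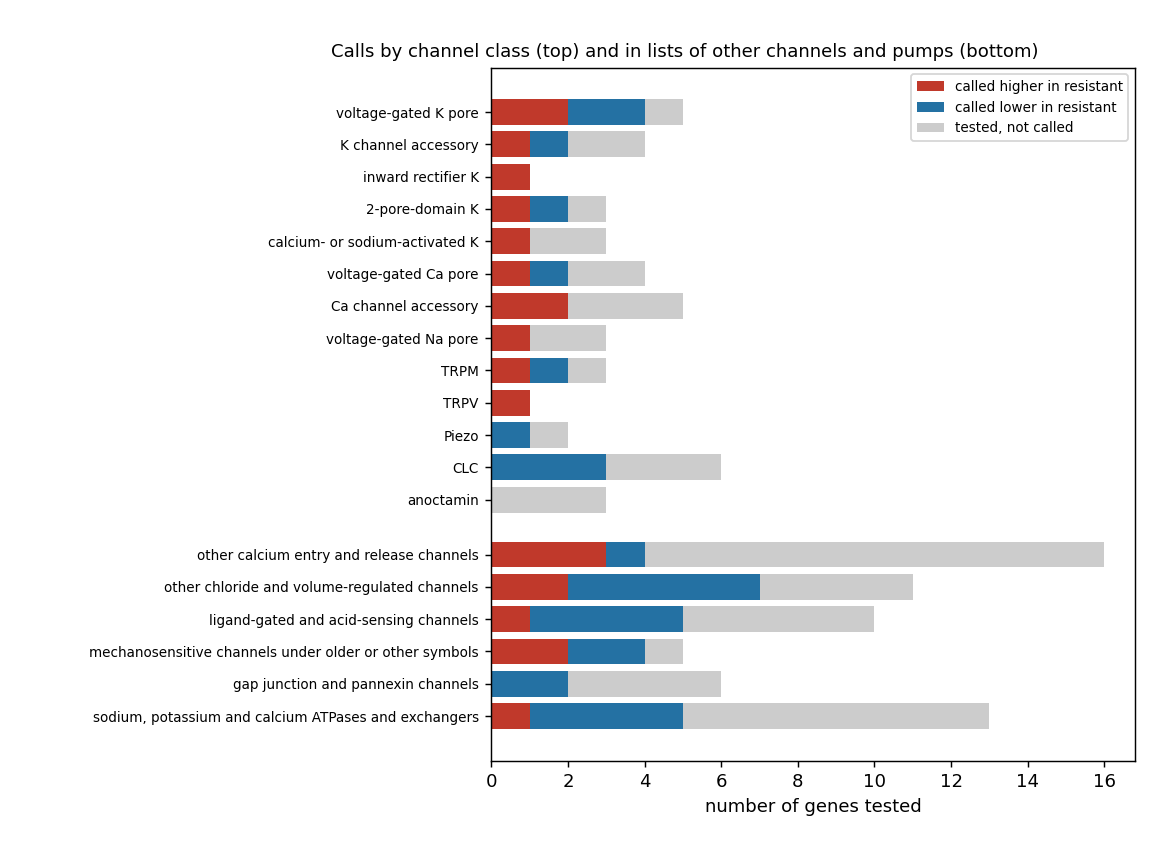
Number of genes tested in the channel classes shown (upper bars) and in 6 lists of other channels and pumps (lower bars), split into genes called higher, called lower and not called in resistant over normal tumour CAFs. The CLC, Piezo and gap junction genes hold calls only in the lower direction, while each of the other lists of channels and pumps holds calls in both. No anoctamin was called. Over all genes tested, 29.4% were called in either direction.

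Other channels and pumps that the name pattern does not reach were read from 6 lists. The share to set beside the calls of each list is that over all genes tested, 15.5% higher and 13.9% lower. Of 16 tested calcium entry and release channels and regulators, 3 rose and 1 fell, with a median log2 fold change of -0.02. Pkd2, a cation channel of cilia and the endoplasmic reticulum, had 245 and 178 CPM in resistant tumour CAFs, against 46.6 and 24.4 CPM in normal tumour CAFs, and rose by 2.58 ± 0.37 (adjusted p = 2.39e-04). Orai1, the pore of store-operated calcium entry, had 1 and 5 reads in resistant tumour CAFs, against 43 and 54 reads in normal tumour CAFs, and fell by 3.10 ± 0.68 (adjusted p = 0.00424). Of 11 tested chloride and volume-regulated channel genes, 2 rose and 5 fell, with a median of -0.42. Ttyh1, a tweety family gene of glia and neural tissue, fell by 4.50 ± 0.48 (adjusted p = 3.08e-05), and Lrrc8b, a subunit of the volume-regulated anion channel, fell by 3.85 ± 0.57 (adjusted p = 2.88e-04).

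Of 10 tested ligand-gated and acid-sensing channel genes, 1 rose and 4 fell (median -0.65). P2rx7, a channel gated by ATP, had 25.5 and 17.6 CPM in resistant tumour CAFs, against 392.2 and 332 CPM in normal tumour CAFs, and fell by 4.07 ± 0.32 (adjusted p = 5.79e-06). Of 5 tested genes of other mechanosensitive or related families, 2 rose and 2 fell (median -0.55), and among them Tmc7 fell by 3.62 ± 0.51 (adjusted p = 2.19e-04) and Tmc4 rose by 2.18 ± 0.53 (adjusted p = 0.00782).

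Of 6 tested gap junction and pannexin genes, 2 fell and none rose (median -0.81). Panx1, which forms channels that release ATP, had 7.23 and 1.47 CPM in resistant tumour CAFs, against 60.5 and 72.9 CPM in normal tumour CAFs, and fell by 3.94 ± 0.59 (adjusted p = 3.09e-04). Gjc1, a connexin gene, fell by 1.29 ± 0.41 (adjusted p = 0.0335). Of 13 tested ATPases, exchangers and cotransporters, 1 rose and 4 fell (median -0.78). Slc12a7, a potassium and chloride cotransporter, had 3.42 and 5.14 CPM in resistant tumour CAFs, against 99.1 and 77.8 CPM in normal tumour CAFs, and fell by 4.35 ± 0.46 (adjusted p = 3.17e-05). Atp2b4, a calcium pump of the plasma membrane, fell by 3.07 ± 0.53 (adjusted p = 8.01e-04).

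In the authors' deposited table all 48 members have a log2 fold change and an adjusted p, and at an adjusted p under 0.05 there were 6 higher and 3 lower, against 8.76% of its 13417 genes with an adjusted p in either direction. In the authors' deposited table Kcnj15 has the smallest adjusted p of the members, 8.73e-09, with a log2 fold change of 3.99 ± 0.46 (SE). The value for Kcna1 in the authors' deposited table is -9.48 (adjusted p = 1.14e-06). No CLC gene passed in the authors' deposited table. Clcn4-2 has a log2 fold change of -1.57 ± 0.36 (SE) there, with an adjusted p of 0.698. The estimate is near that of edgeR, and an adjusted p so large beside that SE is unlike a test against 0. What the authors' adjusted p tests was not established here, so their calls and the edgeR calls are not directly comparable.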

How the data were processed

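RNA of 2 resistant and 2 normal tumour CAF libraries was analysed from whole-number read counts per gene, deposited by the authors without normalization. The submitters' processing notes name bcl2fastq 2, TopHat2 2.1.1, Picard 1.62, HTSeq 0.7.2, DESeq2 and the mouse build mm9, and the labels' protocols name both a TruSeq kit and a SMART-seq2 preparation without saying which libraries used which. The authors also deposited a table of log2 fold changes and p-values, which was read as given. Groups came from the titles. Genes passing filterByExpr (minimum count 10) entered the test of edgeR 4.0.16 (R 4.3.3), a quasi-likelihood F-test with TMM factors and Benjamini-Hochberg adjustment over all genes, resistant over normal, and called at an adjusted p under 0.05. The standard error of a log2 fold change is its size over the root of F. Script steps were tested on simulated data. DESeq2 1.42.0, limma 3.58.1 and the settings given in the closing section were alternatives. Lengths and neighbours came from GENCODE on GRCm38, matched by symbol, and promoters from RefSeq. The members, classes and lists were chosen with earlier results of these data known. Named genes are up to 4 called members of each class, the most abundant uncalled one and members with no read in a group, and other members were named after their values were seen. Some members and list genes are counted but not reported here by name.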

Additional observations from a re-analysis of the deposited data

How the results depend on the processing

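Of 22 called members, 10 kept their direction and call in every alternative that tested them: Kcna1, Kcna6, Kcnc2, Kcnd1, Kcnab1, Kcnj15, Kcnk13, Kcnt2, Cacna1g and Piezo2. Of these, Kcnc2, Kcnd1, Kcnk13, Kcnt2 and Cacna1g were not tested under the filter of 50 reads in 2 libraries. Kcnk13 was not tested without normal replicate 2 either. Of the members that kept their call, all but Kcnj15 and Piezo2 reached the filter's level only in the group where they were higher. Such calls were likely to hold, so their stability is not separate support. Over 605 values of a gene under an alternative, 528 kept direction and side of the threshold, 41 lost a call, 22 gained one and 14 changed sign. With at least 50 reads asked for in 2 libraries, 4 members were higher and 6 lower, since fewer genes were tested. Leaving out 1 library gave 7 to 11 members higher and 5 to 10 lower, and 1078 to 2024 of all genes higher and 951 to 2323 lower. DESeq2 gave 8 higher and 8 lower. Library totals alone shifted the median of all genes by -0.14 and gave 13 higher and 12 lower. Whether the replicate numbers pair the samples was not settled. Across genes, deviations from the group mean correlated at r = 0.217 between replicate 1 of both groups, which cannot decide it. A replicate block gave 14 members higher and 12 lower. Over all genes the block gave 2257 higher and 2267 lower, against 1857 and 1668 without it. The sign changed in members that were not called, and the cause was not tested. With read density offsets the log2 fold change was -0.072 for Kcnk3, -0.005 for Cacnb4, -0.31 for Kcnma1 and -0.16 for Ano8, and with library totals alone -0.065 for Ano10. Leaving out 1 library gave log2 fold changes of -0.14 to 0.88 for Clcn6, -0.0051 to 1.87 for Kcnip3, -0.88 to 0.065 for Trpc4ap, -0.22 to 0.32 for Ano10, -0.19 to 1.44 for Ano8, -0.91 to 1.97 for Kcnn4 and -0.77 to 0.49 for Kcnf1. Depth limits the members under 100 reads, which are 26 of 48.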

Other observations

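Of 136 channel names under the minimum of 40 reads, 45 had no read and 3 passed the filter. Cacna1b, the N-type calcium channel pore, had 14 and 10 reads in resistant tumour CAFs, against 6 and 3 in normal tumour CAFs (log2 fold change 2.23 ± 0.69, SE, edgeR adjusted p = 0.0280). Kcnh2, the pore of the rapid delayed rectifier of the heart, had 14 and 9 reads in resistant tumour CAFs, against 7 and 7 in normal tumour CAFs, and was not called (1.57 ± 0.62, edgeR adjusted p = 0.0764). Trpv4, an osmotically gated cation channel, had 6 and 3 reads in resistant tumour CAFs and 14 and 15 in normal tumour CAFs and did not pass the filter.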
